A study of Mus musculus with 7 samples.

Results

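The Hox genes are the homeobox transcription factor genes of the HoxA, HoxB, HoxC and HoxD clusters. All rows of the count table whose symbol names a gene of these 4 clusters were taken, which gave 39 of 24419 rows, and 22 of the 39 were abundant enough to be tested. They were measured in LLC1, a mouse Lewis lung carcinoma line kept in culture, by sequencing of polyadenylated RNA in 7 libraries. Of these, 4 were labelled wild-type for Ddx54, and in 3 Ddx54, a DEAD-box RNA helicase gene, was knocked down with an shRNA. Both groups grew in DMEM with 10% FBS. The labels describe no shRNA or vector for the wild-type cells, and for the knockdown cells neither the shRNA sequence nor whether they were a pool or a clone, so an effect of the knockdown and a difference between sublines of LLC1 cannot be told apart. Nor do they name separate cultures for the replicates, and the spread behind each p-value may therefore be technical.

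Hox proteins bind DNA through the homeodomain, mostly together with cofactors of the Pbx, Meis and Pknox families, and they give cells along the head-to-tail axis and the limbs their positional identity. Within a cluster the genes are numbered by paralog group from the 3′ end, which is active in anterior regions and responds to retinoic acid, to the 5′ end, which is active in posterior regions and distal limbs. Adult cells and cell lines often keep a Hox pattern of their origin through Polycomb repression and MLL (trithorax) activation. Hoxa5 is known for its part in lung and airway development.

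Library totals ranged from 14987324 to 18673395 counts. Levels per library are given below as CPM (counts scaled to a common library size with TMM factors), for wild-type 1 to 4 in that order and then for knockdown 1 to 3. Ddx54 measured 80.4, 82.5, 78.6 and 83.2 CPM against 45.9, 39.2 and 45.8 CPM with knockdown, 53.7% of wild-type by the fitted fold (adjusted p = 6.549e-09, edgeR quasi-likelihood; exact permutation p = 0.0286, two-sided, the smallest that 35 splits allow). Of 12 leukocyte markers only Cd14 and Cd68 could be tested, Cd3e had 0 counts in every library and Ptprc had 2 counts in 1 library. The list summed to 19.7 to 22.9 CPM in wild-type and 26.5 to 31.3 CPM with knockdown, mostly Cd14, which rose (0.40 on the log2 scale, adjusted p = 0.04781). Of 11 fibroblast markers 6 could be tested and 0 passed, with sums of 1047.7 to 1239 CPM and 1059.9 to 1128.5 CPM, mostly Col3a1, and 0 counts of Thy1 and Postn. Of 10 epithelial markers 3 could be tested, Krt18 and Krt19 fell, Cldn3, Cldn4 and Esrp1 had 0 counts, and the sums were 239.1 to 248.8 CPM and 150.1 to 168.01 CPM. Of 10 lung epithelial markers Hopx (-1.25) fell and Ager (1.88) rose, both at low levels, while Nkx2-1 and Sftpa1 had 0 counts and the other 6 had at most 17 counts in a library, with sums of 4.82 to 8.89 CPM and 4.88 to 7.38 CPM. Of 9 endothelial markers 1 could be tested, Cdh5, Tek, Cldn5, Emcn and Tie1 had 0 counts, and the sums were 1.07 to 3.19 CPM and 0.706 to 1.19 CPM. None of the 5 erythroid markers could be tested. The part of these differences in the Hox results was not tested.

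The stretches just before 3 HoxD genes are shown because Hoxd3 and Hoxd4 differed between the groups while Hoxd8, the next gene on their 5′ side, did not pass the test. In the GENCODE M21 annotation of GRCm38 (mm10), Hoxd8 lies on chromosome 2 at 74704615 to 74707933, Hoxd4 at 74711929 to 74729160 and Hoxd3 at 74711927 to 74748442, all on the plus strand. A noncoding Hoxd4 transcript starts next to the first Hoxd3 start, and the first coding Hoxd4 transcript starts at 74721978. Hoxd3 and Hoxd4 share 388 exonic bases, 9.26% of the Hoxd3 and 13.2% of the Hoxd4 exons. A further annotated gene on the same strand, Gm28230, shares 53.1% of the Hoxd3 and 39.1% of the Hoxd4 exonic bases and has no row in the table. How reads in these shared stretches were counted is not given, so the levels of both genes are uncertain. The sequences are RefSeq promoter windows (GRCm38.p6, plus strand, 5′ to 3′), the Hoxd3 window ending before its first annotated exon. They lie at chr2:74704365-74704614 for Hoxd8, at chr2:74711743-74711926 for Hoxd3 and at chr2:74721728-74721977 for Hoxd4. Capitals mark matches on either strand to 3 motifs. The TATA box was searched as TATAAA. The motif of the factor NF-Y was searched as CCAAT. The core bound by retinoic acid receptors and other nuclear receptors was searched as AGGTCA.
Hoxd8: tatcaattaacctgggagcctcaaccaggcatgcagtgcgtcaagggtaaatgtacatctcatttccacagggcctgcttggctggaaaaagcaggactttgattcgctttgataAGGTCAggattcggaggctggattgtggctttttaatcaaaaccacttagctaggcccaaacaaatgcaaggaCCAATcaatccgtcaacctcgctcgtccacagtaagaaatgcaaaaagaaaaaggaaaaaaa
Hoxd3: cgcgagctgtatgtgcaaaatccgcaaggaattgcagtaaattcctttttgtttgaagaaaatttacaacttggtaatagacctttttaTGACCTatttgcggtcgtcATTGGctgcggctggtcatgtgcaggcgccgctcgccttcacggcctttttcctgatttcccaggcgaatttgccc
Hoxd4: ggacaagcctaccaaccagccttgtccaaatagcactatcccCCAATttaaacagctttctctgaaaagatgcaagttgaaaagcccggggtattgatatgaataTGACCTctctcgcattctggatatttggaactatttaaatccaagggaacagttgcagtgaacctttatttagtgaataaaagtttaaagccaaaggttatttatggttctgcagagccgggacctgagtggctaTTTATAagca

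All 3 windows held 1 CCAAT match and 1 AGGTCA match, so neither motif separated Hoxd3 and Hoxd4 from Hoxd8. The CCAAT motif occurred in 33.8% and AGGTCA in 14% of 32817 RefSeq windows of 250 bases. TATAAA, found here only before Hoxd4, occurred in 12.4% of them. The Hoxd4 match reads TTTATA, so it lies on the strand opposite to the gene and is not in the direction of a TATA box for it. RefSeq windows were matched for 22 of the 39 Hox genes, 24 windows in all, of which 14 held CCAAT, 6 held AGGTCA and 4 held TATAAA. The search also covered the E-box CACGTG, held by 4 of the 24 Hox windows and 6.02% of all windows. The Meis and Pknox motif TGACAG was in 2 Hox windows and 15.9% of all. The joint Pbx and Hox motif TGATTNAT was in 2 Hox windows and 2.83% of all. Hox windows had a median of 12.5 CpG dinucleotides, against 6 over all windows, and the Hoxd3, Hoxd8 and Hoxd4 windows of 250 bases held 12, 6 and 3. These are matches of letters and were not tested as binding sites.

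LLC1 cells had transcripts of most HoxA and HoxB genes and of HoxD genes of groups 3 to 11, and almost none of HoxC. Of the 39 genes, 11 had too few counts to be tested and 6 had none in any library. By cluster, 7 of 11 HoxA, 8 of 10 HoxB, 1 of 9 HoxC and 6 of 9 HoxD genes could be tested. Levels between genes are compared per length, as RPKM (CPM per kilobase of annotated exon) in wild-type, mean ± SD, n = 4. The highest were Hoxa5 at 17.8 ± 0.638 RPKM, Hoxd8 at 17.5 ± 1.503 RPKM and Hoxd9 at 17.2 ± 3.04 RPKM, whose ranges overlapped. Hoxd10 followed at 13.6 ± 1.31 RPKM, overlapping Hoxd9 but not Hoxa7 at 11.1 ± 0.862 RPKM, and Hoxa7 in turn did not overlap Hoxb4. This order depends on the length used: per kilobase of the longest transcript Hoxd8 averaged 18.2, Hoxa5 17.8, Hoxa7 15.7 and Hoxd10 13.6 RPKM, which puts Hoxd8 above Hoxa5 and Hoxa7 above Hoxd10. From Hoxb4 (7.24 ± 1.48 RPKM) and Hoxb7 (6.93 ± 1.11 RPKM) downward each gene's range overlapped the next, through Hoxa11 at 4.70 ± 0.770 RPKM and Hoxb3 at 2.86 ± 0.776 RPKM. In all, 17 genes had a mean of at least 1 RPKM. The median of 11170 tested genes with a length was 5.26 RPKM, and Hoxa5, Hoxd8 and Hoxd9 stood at percentiles 77.1, 76.8 and 76.4 of them, with Hoxd4 at 27.1 and Hoxd3 at 8.76.

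**Figure D1:**
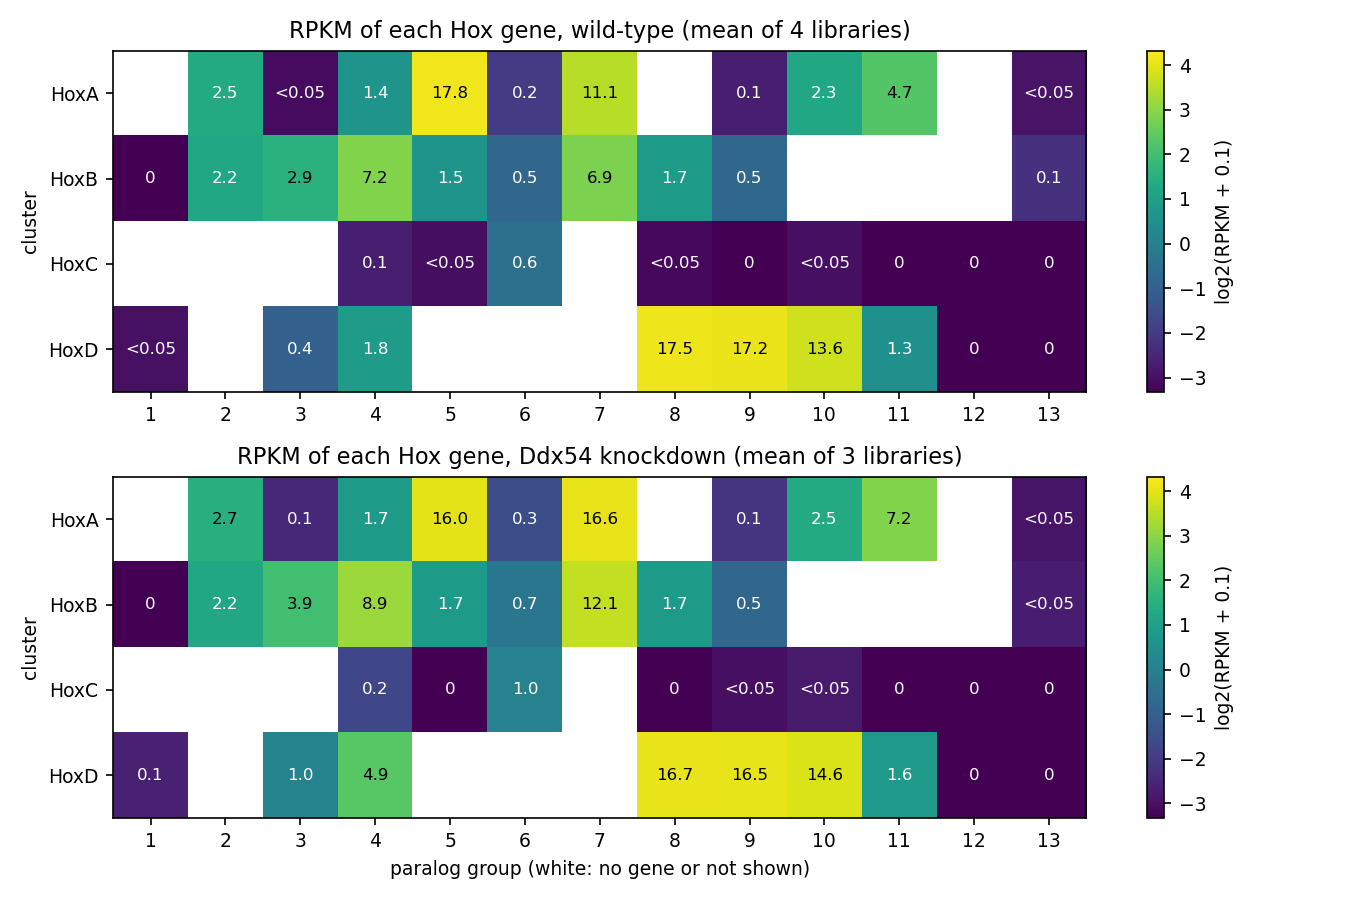
Mean RPKM of 38 Hox genes by cluster (rows) and paralog group (columns) in the 4 wild-type and the 3 knockdown libraries, with colour on a log2(RPKM + 0.1) scale. Hoxa5 and Hoxd8 to Hoxd10 are the brightest wild-type squares, the HoxC row is dark except Hoxc6, and Hoxd4 goes from 1.78 to 4.92 RPKM.

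The posterior ends of the clusters and most of HoxC were silent or nearly so, as were the anterior Hoxb1 and Hoxd1. Hoxb1, Hoxc11, Hoxc12, Hoxc13, Hoxd12 and Hoxd13 had 0 counts in all 7 libraries, and 3 counts, the limit that a count of 0 allows, correspond to 0.163 to 0.204 CPM in a library (counting error only). Group 13, which patterns the most posterior axis and the digits, was represented by Hoxa13 with 6 counts in wild-type 1 and 4 in knockdown 3, and by Hoxb13 with 5 and 11 counts in wild-type 2 and 4 and 6 in knockdown 2. Hoxa9 had 8, 0, 12 and 0 counts in wild-type and 9, 18 and 8 with knockdown. Hoxa3 had 0, 0, 0 and 7 counts in wild-type and 7, 14 and 4 with knockdown. Among the other low genes, Hoxa6, Hoxc4 and Hoxc10 had totals of 21, 35 and 8 counts over the 7 libraries, Hoxd1 had 9, and Hoxc5, Hoxc8 and Hoxc9 had 4, 2 and 3. These genes gave no test.

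With Ddx54 knocked down, 5 Hox genes were higher and 0 were lower among the 22 that could be tested, at adjusted p under 0.05, where 14.1% of all 11594 tested genes were higher and 15.3% lower. The Hox share called higher was 22.7%, and calls in either direction took 29.4% of all tested genes. Among the 6917 tested genes within the range of mean CPM of the tested Hox genes, 9.77% were higher and 11.7% lower. The genes called were Hoxd4, Hoxd3, Hoxb7, Hoxa11 and Hoxa7, that is 2 in HoxD, 1 in HoxB and 2 in HoxA. At an unadjusted p under 0.05 (edgeR), 6 Hox genes were higher and 0 lower, where 18.7% and 19.6% of all tested genes were. DESeq2 and limma-voom each called 5 higher and 0 lower. The log2 fold change was positive for 17 and negative for 5 tested Hox genes, with a median of 0.22 against 0.001 over all tested genes.

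**Figure D2:**
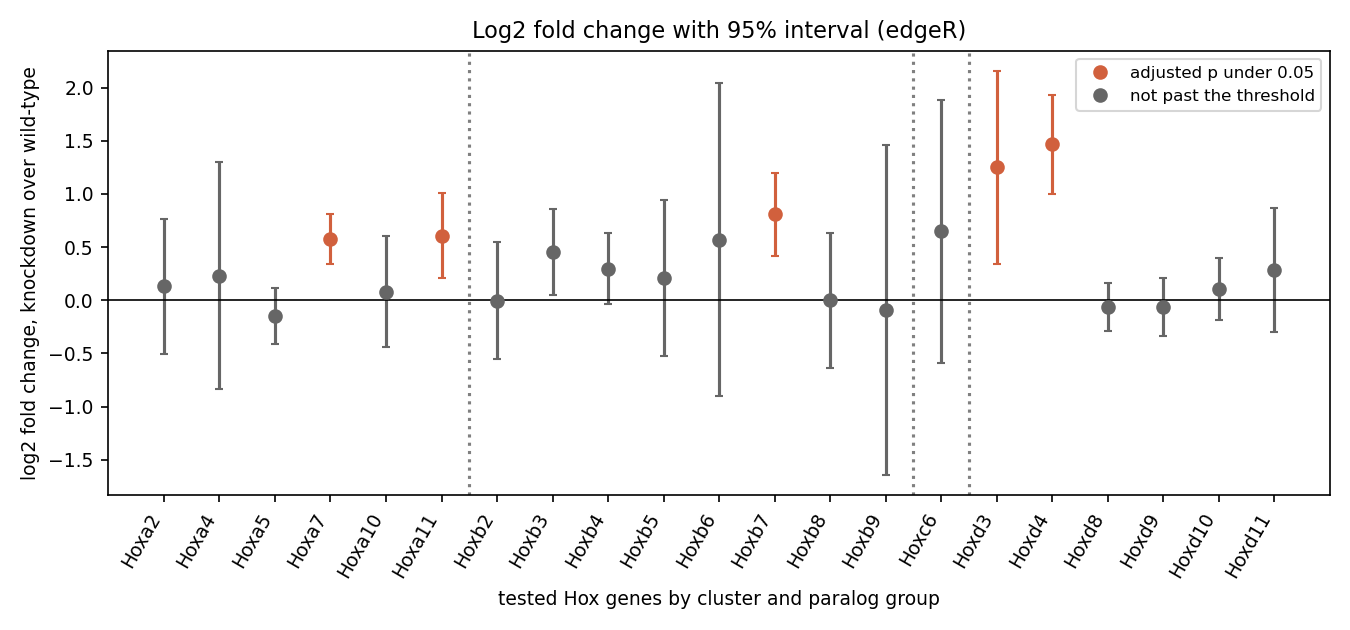
Log2 fold change of 21 tested Hox genes (knockdown over wild-type) with its 95% interval from edgeR, ordered by cluster and paralog group, with dotted lines between clusters. The 5 genes past the threshold all lie above 0, and Hoxd4 and Hoxd3 lie highest, beside Hoxd8 and Hoxd9 near 0.

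Hoxd4, a group 4 gene of the hindbrain and neck vertebrae and a target of retinoic acid in the embryo, differed most. It measured 3.76, 5.30, 6.99 and 4.97 CPM against 13.1, 14.8 and 15.7 CPM with knockdown. Every knockdown library was above every wild-type library. The log2 fold change was 1.47 (SE 0.23, 95% interval 1.0 to 1.93, adjusted p = 6.468e-06, edgeR), a rise of 2.76-fold. Its call was kept in each of 16 other settings, with log2 fold changes of 1.33 to 1.63.

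Hoxd3, its 3′ neighbour of group 3, measured 0.927, 1.49, 2.03 and 2.31 CPM against 4.59, 3.36 and 4.10 CPM with knockdown. These values rest on 17, 22, 31 and 39 counts in wild-type and 77, 62 and 63 with knockdown, and the groups did not overlap. Hoxd3 rose by a log2 fold change of 1.25 (SE 0.45, 95% interval 0.34 to 2.16, adjusted p = 0.03213, edgeR). The call was lost without wild-type 1 (1.04, adjusted p = 0.07673) or 2 (1.20, adjusted p = 0.05185), and without knockdown 1 (1.14, adjusted p = 0.1255), 2 (1.36, adjusted p = 0.05535) or 3 (1.23, adjusted p = 0.09109). Hoxd3 and Hoxd4 share exons and the counting rule for shared reads is not given. Their counts were also summed as 1 gene, which gave a log2 fold change of 1.42 (adjusted p = 2.431e-06, edgeR). The sum cannot restore shared reads that were dropped, or undo a double count. Most of it was Hoxd4, with 1070 counts over all libraries against 311 of Hoxd3, so it says little on Hoxd3.

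The HoxD genes on the 5′ side of this pair did not pass the test. Hoxd8, a trunk gene, measured 45.7, 52.9, 49.7 and 43.7 CPM against 49.3, 47.3 and 41.2 CPM with knockdown, with a log2 fold change of -0.06 (95% interval -0.29 to 0.17). Hoxd9 measured 28.6, 41.97, 34.4 and 41.9 CPM against 31.7, 37.6 and 36.2 CPM with knockdown (interval -0.33 to 0.21). Hoxd10 measured 26.3, 22.8, 22.4 and 27.1 CPM against 30.1, 23.7 and 25.8 CPM with knockdown (interval -0.18 to 0.39). Hoxd9 and Hoxd10 act in the lower trunk and the limbs, and both groups overlapped for each. Hoxd11, a forearm and kidney gene, measured 5.67, 6.04, 3.53 and 7.05 CPM against 8.89, 6.08 and 5.40 CPM with knockdown and had a wider interval (-0.30 to 0.86).

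Ratios of counts within a library do not depend on library scaling. The ratio of Hoxd4 to Hoxd8 counts was 0.0823 to 0.141 in wild-type and 0.265 to 0.381 with knockdown. The ratio of Hoxd3 to Hoxd8 counts ran from 0.0203 to 0.0528 and from 0.0711 to 0.0995 in the respective groups. Both ratios were thus higher in each knockdown library than in any wild-type library, which describes genes picked for their difference and was not tested. Of the other pairs computed in 1 cluster, Hoxd4 to Hoxd9 did not overlap (0.119 to 0.203 and 0.393 to 0.433). Hoxb7 to Hoxb4 (0.379 to 0.814 and 0.670 to 0.993) and Hoxa11 to Hoxa10 (1.17 to 1.82 and 1.58 to 2.30) did overlap.

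**Figure D3:**
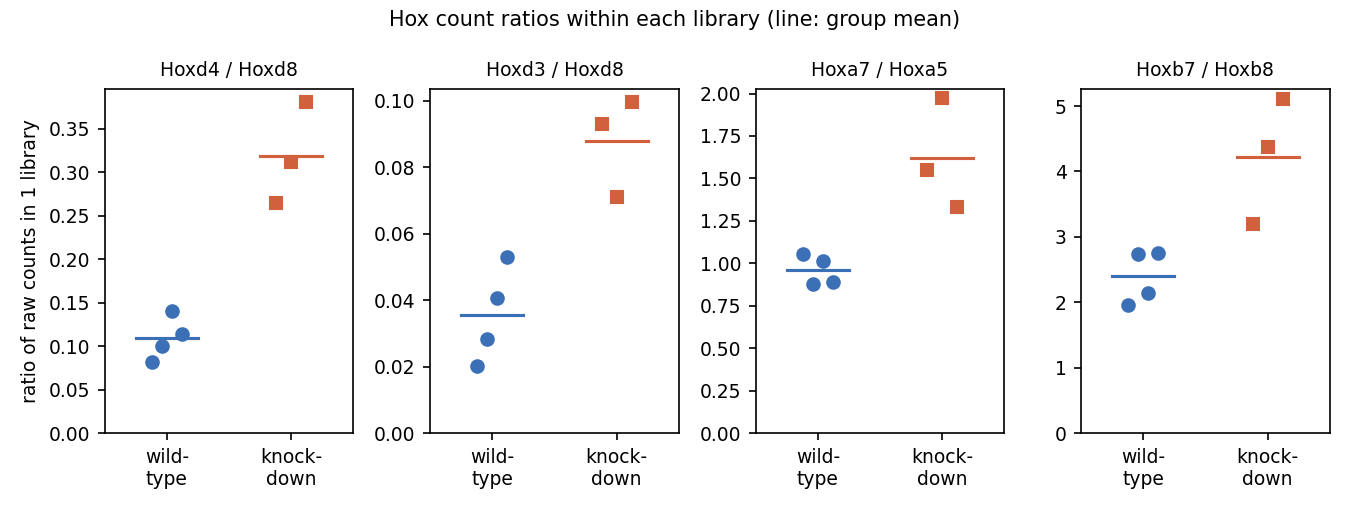
Ratios of raw counts of 2 Hox genes of the same cluster within each library, with a line at each group mean, for 4 wild-type and 3 knockdown libraries. The Hoxd4 to Hoxd8 ratio was 0.0823 to 0.141 in wild-type and 0.265 to 0.381 with knockdown. The 4 ratios shown do not overlap between the groups, unlike Hoxb7 to Hoxb4 and Hoxa11 to Hoxa10, which are not plotted. In each ratio shown the first gene was picked for its difference.

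The group 7 paralogs Hoxa7 and Hoxb7, which act in the thoracic region and are the only 2 of that group in the mouse, both rose. Hoxa7 (chromosome 6, 52214491 to 52221854, minus strand) measured 34.2, 28.7, 33.6 and 31.3 CPM against 48.9, 49.3 and 44.9 CPM with knockdown, a log2 fold change of 0.58 (SE 0.12, 95% interval 0.34 to 0.81, adjusted p = 0.0002291, edgeR). Hoxb7 (chromosome 11, 96286623 to 96290162, plus strand) measured 8.56, 11.003, 10.5 and 12.7 CPM against 14.3, 22.6 and 19.3 CPM with knockdown, a log2 fold change of 0.81 (SE 0.19, 95% interval 0.42 to 1.20, adjusted p = 0.001424). For both genes all knockdown libraries lay above all wild-type libraries, and both kept the call in each of the 16 other settings. The antisense RNA Hoxaas3 overlaps 20.4% of the annotated Hoxa7 exons and averaged 0.576 ± 0.615 CPM in wild-type and 1.01 ± 0.114 CPM with knockdown. How reads in the overlap were counted is not given, and their part in the Hoxa7 counts was not tested.

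The genes on either side of Hoxa7, Hoxa6 and Hoxa9, had too few counts to be tested, and the nearest tested HoxA genes, Hoxa5 and Hoxa10, and the neighbours of Hoxb7 did not pass. Hoxa5 measured 32.4, 32.8, 33.1 and 35.1 CPM against 31.6, 25.02 and 33.6 CPM with knockdown, with knockdown 2 lowest and the groups overlapping (-0.15, 95% interval -0.42 to 0.11). The ratio of Hoxa7 to Hoxa5 counts was 0.876 to 1.05 in wild-type and 1.33 to 1.97 with knockdown. In this ratio and that of Hoxb7 to Hoxb8 below, the first gene was picked for its difference, and neither ratio was tested. Hoxb8, on the 5′ side of Hoxb7, measured 4.36, 4.01, 4.90 and 4.62 CPM against 4.47, 5.16 and 3.77 CPM with knockdown (0.0004, interval -0.63 to 0.63). The ratio of Hoxb7 to Hoxb8 counts was 1.96 to 2.76 in wild-type and 3.20 to 5.10 with knockdown. Hoxb6, the next gene on the 3′ side, was much lower and overlapped, at 1.25, 1.49, 0.523 and 0.414 CPM against 2.03, 0.977 and 1.11 CPM with knockdown (interval -0.90 to 2.04). Hoxb9 measured 2.998, 0.136, 1.44 and 0.592 CPM against 1.13, 0.543 and 2.02 CPM with knockdown (interval -1.64 to 1.47), with wild-type 1 highest and wild-type 2 lowest. Hoxb5, which like Hoxa5 has a part in lung branching, measured 6.81, 4.01, 2.16 and 3.20 CPM against 3.28, 5.16 and 5.66 CPM with knockdown (interval -0.52 to 0.94). For Hoxb5, Hoxb6 and Hoxb9 the intervals were wide and the libraries of a group scattered.

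Hoxa11 (chromosome 6, 52242106 to 52245810, minus strand), which patterns the forearm, the kidney and the uterus, measured 11.4, 12.9, 9.61 and 9.06 CPM against 12.5, 17.04 and 19.6 CPM with knockdown. Knockdown 1 lay below wild-type 2, so the groups overlapped. Hoxa11 rose by a log2 fold change of 0.61 (SE 0.20, 95% interval 0.21 to 1.01, adjusted p = 0.01819, edgeR). The call was lost without wild-type 4 (0.53, adjusted p = 0.0604) and without knockdown 2 (0.58, adjusted p = 0.07504) or 3 (0.46, adjusted p = 0.1626). The antisense RNA Hoxa11os covers 35% of the annotated Hoxa11 exons. It rose as well, with 4.14, 3.74, 7.45 and 4.32 CPM against 7.28, 8.79 and 9.50 CPM with knockdown (0.80, SE 0.28, adjusted p = 0.0268). Its call was lost without wild-type 1, 2 or 4 or knockdown 2 or 3 (adjusted p from 0.06128 to 0.1214). Since no strand setting is given, reads of these genes cannot be told apart where they overlap. Hoxa10, the next gene on the 3′ side, measured 6.92, 11.003, 7.45 and 4.97 CPM against 7.94, 7.60 and 8.52 CPM with knockdown (0.08, interval -0.44 to 0.60).

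Of the genes that did not pass, Hoxb3 came nearest. It measured 9.76, 9.98, 16.9 and 11.96 CPM against 17.8, 14.3 and 17.8 CPM with knockdown, overlapping through wild-type 3 (0.45, SE 0.20, adjusted p = 0.08235, edgeR). Without wild-type 3 it passed (0.65, adjusted p = 0.01415). The antisense RNA Hoxb3os covers 52.9% of its annotated exons. Hoxb4, known for its part in blood stem cells, measured 22.6, 13.5, 18.3 and 19.9 CPM against 21.4, 22.7 and 24.5 CPM with knockdown (0.30, interval -0.04 to 0.63). The ratio of Hoxd4 to Hoxb4 counts, both of group 4, was 0.167 to 0.392 in wild-type and 0.612 to 0.649 with knockdown. Hoxd4 was picked for its difference, and its ratio to Hoxb4 was not tested. Hoxa4, their paralog in HoxA, measured 1.36, 2.51, 4.44 and 0.888 CPM against 3.04, 1.47 and 3.58 CPM with knockdown (interval -0.84 to 1.30).

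Hoxa2 and Hoxb2, group 2 genes that act in the hindbrain, did not pass either. Hoxa2 measured 4.47, 4.89, 4.44 and 3.73 CPM against 4.24, 4.50 and 5.66 CPM with knockdown (interval -0.50 to 0.76). Hoxb2 measured 4.03, 10.9, 9.28 and 7.10 CPM against 7.64, 7.22 and 8.52 CPM with knockdown (interval -0.55 to 0.55). The groups overlapped for both. Hoxc6, the only HoxC gene tested, measured 2.23, 1.83, 0.523 and 1.24 CPM against 2.09, 3.80 and 0.976 CPM with knockdown, also overlapping, with a wide interval (0.65, -0.59 to 1.88).

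**Figure D4:**
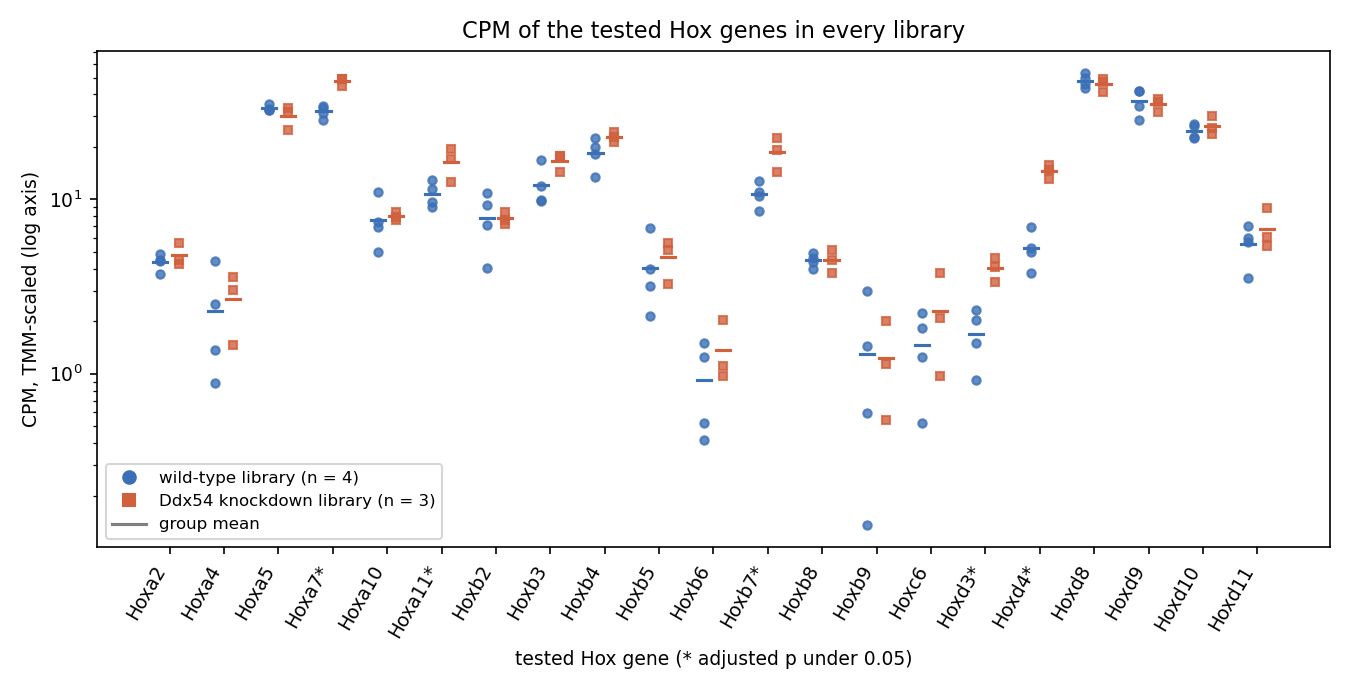
CPM (log axis) of 21 tested Hox genes in each of 4 wild-type and 3 knockdown libraries, with a line at each group mean and a star at genes past adjusted p of 0.05. The groups do not overlap for Hoxa7, Hoxb7, Hoxd3 and Hoxd4, and genes under about 3 CPM scatter widely within a group.

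Ranges of the groups did not overlap for 4 of the 22 tested Hox genes, all higher with knockdown, where 17.5% of all tested genes were higher and 17.6% lower without overlap. Summed over the 39 genes, Hox transcripts took 267.96 to 284.9 CPM in wild-type and 322.95 to 332.6 CPM with knockdown. The 5 genes past the threshold, picked for their difference, accounted for 40.96 of the 50.4 CPM between the group means, and the other 34 genes together went from 216.5 ± 6.79 to 225.9 ± 5.97 CPM. The HoxD share of all Hox counts was 41.4 to 45.9% in wild-type and 38.6 to 42.7% with knockdown. In bulk RNA, a higher level in every cell and a larger share of cells with the transcript cannot be told apart.

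Noncoding RNAs of the clusters were low. Of 22 listed, 15 were in the table, 6 could be tested, and Hoxa11os alone passed, with a list median of 0.54. For this and each list below, the shares to compare are those over all tested genes, 14.1% higher and 15.3% lower. Hotair of HoxC and Hottip at the 5′ end of HoxA, known to act with Polycomb and MLL complexes, had 0 counts in every library. Hoxd3os1, antisense to 347 exonic bases of both Hoxd3 and Hoxd4, measured 0.981, 1.90, 1.70 and 2.90 CPM against 3.16, 3.53 and 2.86 CPM with knockdown and did not pass (0.77, adjusted p = 0.2477).

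Genes that flank the clusters moved in both directions, with 6 of 15 tested higher and 2 lower (median log2 fold change 0.12). Over all tested genes 14.1% were higher and 15.3% lower. Near HoxC, the coactivator gene Calcoco1 fell from 73.3 ± 2.81 to 36.2 ± 4.73 CPM (-1.02, adjusted p = 3.478e-09). Cbx5, which encodes heterochromatin protein HP1 alpha and lies on the other side of the cluster, rose from 594.6 ± 12.9 to 869.3 ± 27.2 CPM (0.55, adjusted p = 3.369e-09). The base repair gene Smug1 (0.58, adjusted p = 0.0222), near HoxC, and the sorting nexin gene Snx11 (0.61, adjusted p = 0.009734), further from HoxB, also rose. Both calls were lost without knockdown 1 or 3, and that of Smug1 also without wild-type 1 (adjusted p from 0.0527 to 0.0611 for Snx11 and 0.07809 to 0.1833 for Smug1). Without knockdown 1, or without knockdown 3, 3 flanking genes were higher. Around HoxD, the ATP synthase subunit gene Atp5g3 rose (0.25, adjusted p = 0.0009215), while Mtx2 (0.12, adjusted p = 0.5272), Lnp (-0.09, adjusted p = 0.6433) and Atf2 (-0.03, adjusted p = 0.8835) did not pass. Not all of these genes are adjacent to a cluster. Atp5g3 ends at 73911326 and Atf2 at 73892639 on chromosome 2, where HoxD starts at 74668310. Snx11 starts at 96767555 on chromosome 11, where HoxB ends at 96368256. Evx2, the homeobox gene next to Hoxd13, had 0 counts.

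Of 10 tested cofactors of Hox proteins, 1 rose and 3 fell, with a median log2 fold change of -0.29. Pbx2 fell from 104.1 ± 5.26 to 59.3 ± 5.86 CPM (-0.81, SE 0.0893, adjusted p = 1.011e-08). Its paralog Pbx3 rose from 35.9 ± 1.59 to 58.3 ± 3.77 CPM (0.70, SE 0.11, adjusted p = 5.566e-06). Pknox1, a partner of Pbx, fell (-0.45, adjusted p = 0.00179). Meis1 also fell (-0.40, adjusted p = 0.03376), with a call lost without wild-type 3 or 4 or knockdown 1 or 2 (adjusted p from 0.0543 to 0.1352).

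Polycomb genes, whose products keep Hox clusters silent, had 7 of 33 tested higher and 2 lower (median 0.07; all tested genes: 14.1% higher, 15.3% lower). Phf19, an accessory subunit of the complex PRC2, rose from 15.6 ± 1.32 to 28.7 ± 1.14 CPM (0.88, adjusted p = 2.186e-05), and its relative Mtf2 rose by 0.51 on the log2 scale (adjusted p = 6.107e-05). Of the PRC2 core genes, all named after their values were seen, Ezh2 (0.35, adjusted p = 0.0001207) and Suz12 (0.32, adjusted p = 0.0001968) rose. Eed (0.19, adjusted p = 0.1636), Ezh1 (-0.29, adjusted p = 0.1978), Rbbp4 (0.11, adjusted p = 0.2095) and Rbbp7 (0.07, adjusted p = 0.4804) did not pass. Phc1, a subunit of PRC1, fell from 34.5 ± 5.21 to 19.2 ± 2.19 CPM (-0.84, adjusted p = 2.778e-05). Kdm2b, which recruits a PRC1 variant to CpG islands, rose (0.44, adjusted p = 0.02896), with a call lost without wild-type 1 or knockdown 1 or 3 (adjusted p from 0.08848 to 0.1278).

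In the list of MLL and trithorax genes, whose products keep Hox genes active, 6 of 21 rose and 3 fell (median 0.09). Of all tested genes 14.1% rose and 15.3% fell. Kdm6b, a demethylase of the Polycomb mark, fell from 49.3 ± 9.61 to 21.2 ± 4.49 CPM (-1.22, SE 0.15, adjusted p = 1.687e-07). Mllt3 (-0.83, adjusted p = 7.843e-11) and Aff1 (-0.70, adjusted p = 0.0008796), of the elongation complexes that MLL fusions recruit, fell. The methyltransferase gene Ash1l rose (0.55, adjusted p = 4.718e-06). Kmt2a, which encodes MLL itself, averaged 215.2 ± 41.1 CPM in wild-type and 214.8 ± 15.1 CPM with knockdown (adjusted p = 0.9892).

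**Figure D5:**
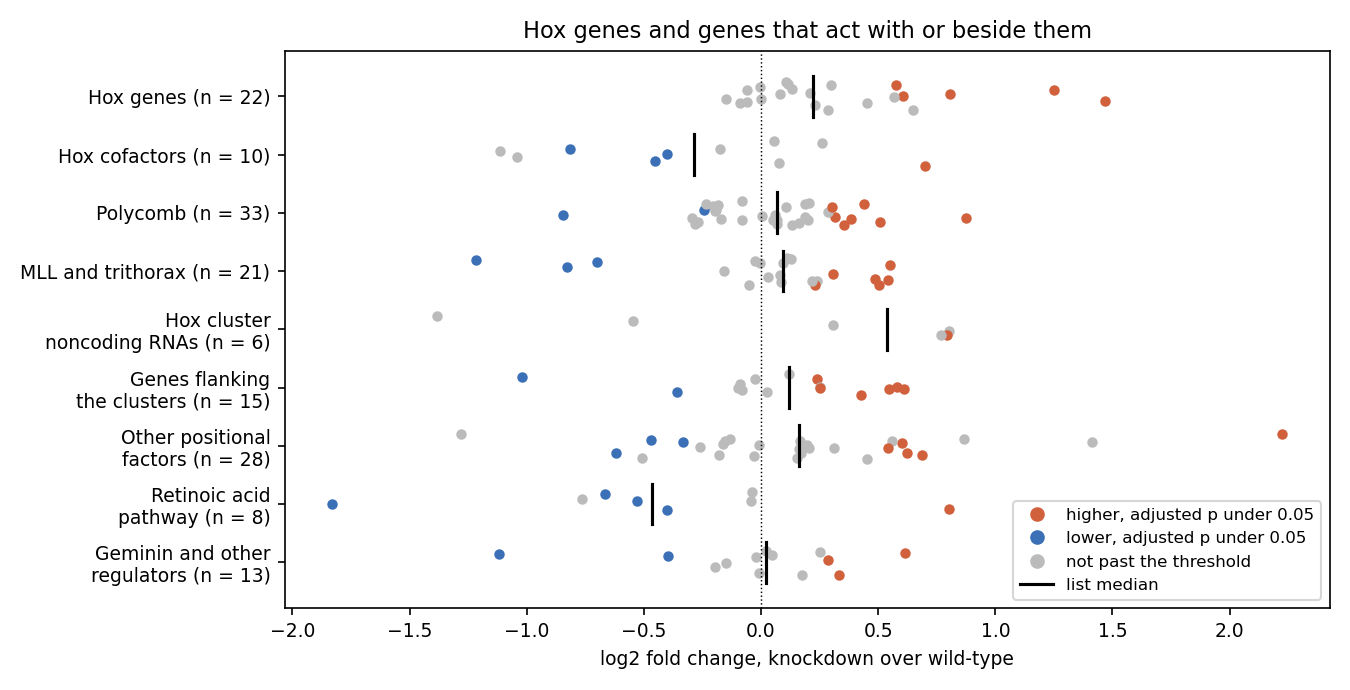
Log2 fold change (knockdown over wild-type) of the tested Hox genes and of 8 lists of genes that act with, on or beside them, each point a gene coloured by its call and each black line a list median. Hox genes have calls on the higher side only, while 7 of the 8 other lists have calls on both sides and the noncoding RNAs have 1, higher.

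Of the retinoic acid genes 1 of 8 tested was higher and 4 were lower (median -0.46), where 14.1% of all tested genes were higher and 15.3% lower. Crabp1, a cellular retinoic acid-binding protein gene, fell from 41.9 ± 0.990 to 11.8 ± 0.454 CPM (-1.83, adjusted p = 3.001e-12). The receptor genes Rxrb (-0.67, adjusted p = 1.634e-06) and Rara (-0.53, adjusted p = 0.005006) fell. Cyp26b1, whose enzyme breaks retinoic acid down, rose, with 2.45, 5.91, 3.66 and 5.68 CPM against 8.77, 6.57 and 7.81 CPM with knockdown (0.80, adjusted p = 0.04029). That call was lost without wild-type 1 or 3 or each of the knockdown libraries in turn (adjusted p from 0.05611 to 0.1621).

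Among other Hox regulators 3 of 13 rose and 2 fell (median 0.02), where 14.1% of all tested genes rose and 15.3% fell. Gmnn, which encodes geminin, a replication inhibitor that binds Hox proteins, rose from 34.4 ± 2.24 to 52.6 ± 4.33 CPM (0.61, adjusted p = 7.8e-05). Ctcf, whose product divides Hox clusters into domains, rose by 0.33 on the log2 scale (adjusted p = 0.0001143). Btg1 (-1.12, adjusted p = 1.112e-10), a cofactor of Hoxb9, and Zfp703 (-0.40, adjusted p = 0.0001831), a zinc finger repressor, fell.

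Of 66 other factors of regional identity in the table, 26 had 0 counts in every library, among them the lung and thyroid factor Nkx2-1. Of these 66, 28 could be tested, of which 5 rose and 3 fell (median 0.16). Over all tested genes 14.1% rose and 15.3% fell. Prrx1, a limb and craniofacial mesenchyme factor, fell from 271.3 ± 5.98 to 176.6 ± 8.10 CPM (-0.62, adjusted p = 5.109e-09). Pax6 (0.69, adjusted p = 0.005833) and Otx1 (0.62, adjusted p = 0.0166), factors of the head and brain, rose, the call of Otx1 being lost without wild-type 3 or 4 or knockdown 1 (adjusted p from 0.05219 to 0.1679). Tbx18, a mesenchymal T-box gene, rose, with 0, 1.09, 1.05 and 0.0592 CPM against 1.85, 2.61 and 3.12 CPM with knockdown (2.22, SE 0.80, adjusted p = 0.03243). Its call was lost without wild-type 1 or 4 or each knockdown library in turn (adjusted p from 0.05656 to 0.142). The number of these factors called higher was 3 without wild-type 4 and 2 without knockdown 1 or 2. The lung mesenchyme genes Foxf1, Tbx4 and Tbx5 averaged 5.78, 1.51 and 0.947 CPM in wild-type and did not pass (adjusted p = 0.6926, 0.523 and 0.9006).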

How the data were processed

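Raw read counts per gene symbol were used as the authors deposited them, in 1 table with 0 columns of other samples. Per the submitters' processing notes, Trimmomatic, STAR, HTSeq and mm10 were used, with no versions. Not given in the sources used here were the gene models, the strand setting and the treatment of reads shared by genes. Columns were grouped by sample title. Counts were fitted with edgeR 4.0.16 (R 4.3.3): filterByExpr, TMM factors and the robust quasi-likelihood test of knockdown against wild-type, with no covariate, adjusted over all 11594 tested genes by the Benjamini-Hochberg method at 0.05. SE is the absolute log2 fold change over the square root of F. RPKM used the union of GENCODE M21 exons, matched by symbol for 96.3% of tested genes. The script was tested on simulated counts. Libraries of a group differed by more than sampling noise (chi-square per degree of freedom 8.52 to 16.9). The members and companion lists were chosen with earlier results of these data known. Every Hox gene was named but 1, which is not reported here by name, though the counts, sums and medians include it. In a companion list, up to 4 called genes with the largest change were named, or, with under 2 calls, the 2 of lowest p. Further list genes given (Ezh1, Ezh2, Suz12, Eed, Rbbp4, Rbbp7, Kmt2a, Atp5g3, Mtx2, Lnp, Atf2, Evx2, Hotair, Hottip, Hoxaas3, Foxf1, Tbx4, Tbx5, Nkx2-1 and cell type markers) were chosen after their values were seen. Other settings were all genes unfiltered, a stricter filter (50 counts or more in 3 libraries), RLE or upper-quartile scaling, DESeq2 1.42.0, voom in limma 3.58.1, a block on replicate numbers, a loess correction for GC content and length (span 0.5), that correction with the block, and leaving out each library. Summing Hoxd3 and Hoxd4 was added after seeing the data.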

Additional observations from a re-analysis of the deposited data

How the results depend on the processing

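Over 16 other settings the Hox genes higher with knockdown numbered 3 to 6 and those lower numbered 0. Leaving out 1 library gave 3 to 6 higher, with 3 without knockdown 2 or 3. With all libraries, 1635 of 11594 tested genes were higher. Whichever library was left out, fewer genes were called higher over the whole table, and fewest without knockdown 2 or 3. The drop to 3 was therefore not confined to Hox genes. Hoxa7, Hoxb7 and Hoxd4 kept their calls in each setting, and 19 of the 22 tested Hox genes did not change theirs where they were tested, the exceptions being Hoxd3, Hoxa11 and Hoxb3. Hoxb3 also passed after adjusting for GC content and length (0.52, adjusted p = 0.04387, edgeR). With 1 library left out, the noncoding RNAs higher numbered 0 to 1, the flanking genes higher 3 to 6, the positional factors higher 2 to 6 and the retinoic acid genes higher 0 to 1, and the cause was not tested. Replicate numbers showed no sign of pairing the libraries. Deviations of same-numbered libraries correlated at -0.154, -0.0776 and 0.000924 over the 5000 most abundant genes, and those of differently numbered ones at -0.0311 to 0.104. So few libraries cannot settle whether they were paired. With the replicate block 4 Hox genes were higher, Hoxa11 being lost (0.52, adjusted p = 0.09487), and with the block and the GC and length adjustment also 4 (Hoxa11 0.59, adjusted p = 0.05518). The block alone also ended the calls of Meis1, Hoxa11os, Tbx18 and Otx1, and the block with that adjustment those of Tbx18 and Rara. Wild-type 4 shares its number with no knockdown library, so under the block it adds nothing to the comparison of the groups. Leaving out wild-type 4 without a block also ended the calls of Hoxa11, Meis1, Hoxa11os, Tbx18 and Otx1. Losses with the block therefore cannot be credited to pairing. A gene with 0 counts in a library may still be present there at up to the level of 3 counts (counting error only).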
